A study of Mus musculus with 12 samples.

Results

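The 34 genes described here encode the machinery that brings glucose into cells, breaks it down to pyruvate and lactate, and in part runs the same route backwards. They were chosen by name, as the facilitative glucose carriers, hexokinases, glycolytic enzymes and their regulators, lactate enzymes and carriers, and enzymes of gluconeogenesis. Probe sets whose annotation names exactly 1 of these genes were taken, and all 34 of 34 were found among the 20358 genes of the array table. They were followed across the visceral fat of C57Bl/6J males aged 20 weeks on 4 diets, with 3 arrays per diet and several mice pooled for each array.

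Every diet, the control included, was rich in trans fat, with shortening at 20% of the feed by weight and trans fat at 8.68%. The control diet is called TFA. MSG+TFA added monosodium glutamate to the drinking water at 0.75 g/L, ASP+TFA added aspartame at 0.25 g/L, and ASP+MSG+TFA added both. Exposure began before birth, since the dams were put on the diets when 6 weeks old, with 3 weeks to go before mating, and the offspring were weaned at 4 weeks. The mice were fasted overnight before the tissue was taken. No group without trans fat was analysed here, so all differences are between additives on one fat-rich background. By the study's methods the tissue was epididymal fat joined with the fat of the reproductive organs and of the omentum and mesentery, so 1 pool can hold depots in different proportions.

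Glucose enters adipocytes through Slc2a4 (GLUT4), which insulin brings to the cell surface, and through Slc2a1 (GLUT1), which sits there constantly. Hexokinase traps it as glucose 6-phosphate, phosphofructokinase commits it to glycolysis under the control of fructose 2,6-bisphosphate, and the lower steps yield pyruvate, which lactate dehydrogenase can turn to lactate. Adipose tissue does not release glucose, and its phosphoenolpyruvate carboxykinase (Pck1) instead serves the making of glycerol 3-phosphate, on which fatty acids are re-esterified in fasting.

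A gene's level on an array is the median of its probe sets on the log2 intensity scale, and a difference of 1 is 2-fold. A level at or under 6.62, the 90th percentile over the means of 1190 odorant and vomeronasal receptor genes, is called dim here. Of the 34 genes, 31 had a mean above this limit, and Hk3, Pgam2 and Eno2 did not. Levels are compared between arrays for 1 gene and never between genes, whose probes differ in brightness.

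Several facts of the arrays bear on what follows. Mature adipocyte markers averaged 12.85 to 13.16 on all 12 arrays, as the tissue label implies. On the first and second arrays of TFA and of MSG+TFA the median receptor gene lay at 6.40 to 6.76, against 5.44 to 5.67 on the other 8 arrays, and these 4 are called the raised arrays. None of the arrays of either aspartame diet was raised. Pools also carried other tissues in unequal amounts. Epididymis markers averaged 5.30 to 12.91, spermatid markers 5.53 to 10.2, seminal vesicle markers 5.20 to 13.70 and liver markers 6.73 to 10.54, with high and low arrays inside single diets. In whole tissue, fewer cells of a type and less RNA per cell cannot be told apart.

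**Figure D1:**
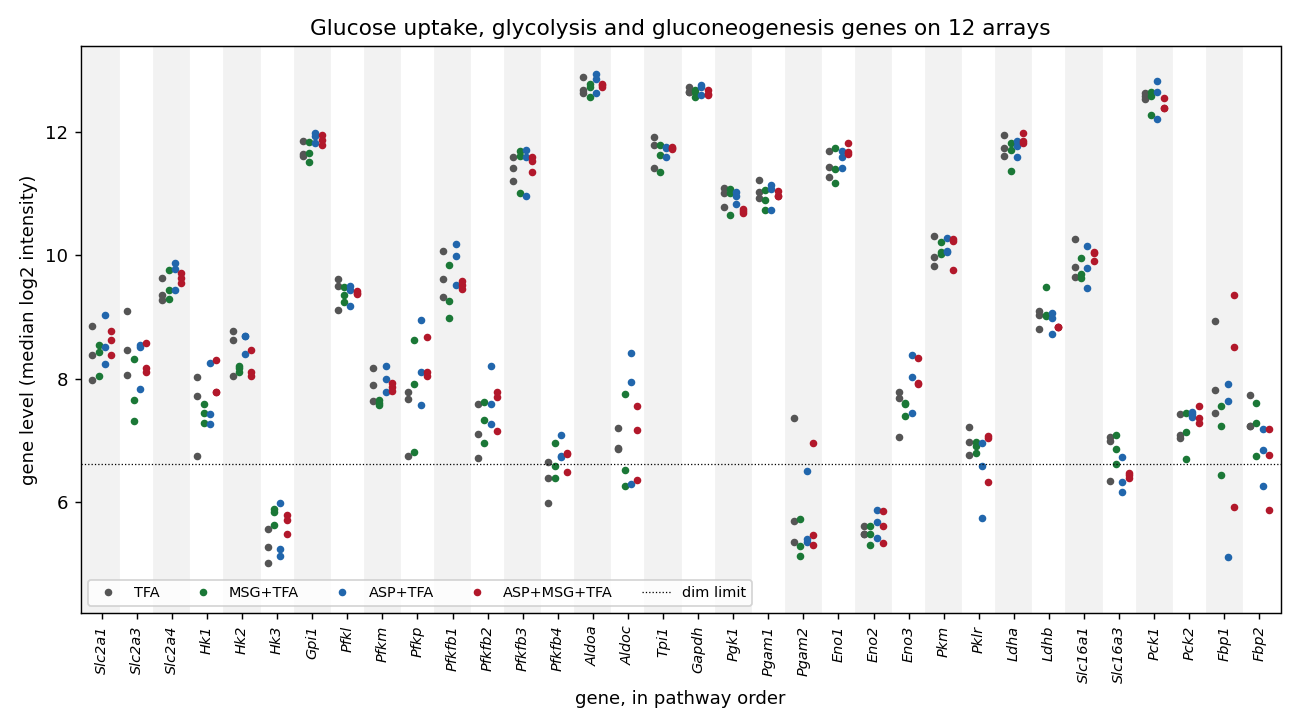
Level of each of the 34 genes on each of the 12 arrays (vertical axis, median log2 intensity), with genes along the horizontal axis in pathway order and 1 point per array coloured by diet. The dotted line is the dim limit of 6.62. Points of the 4 diets overlap for most genes, and Fbp1 spreads most, from 5.10 to 9.36.

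No gene of the pathway was called different from TFA on any diet. A call needed an adjusted p under 0.05 in limma with at least a 1.4-fold difference, and 0 of all 20358 genes met it in any of the 3 comparisons. At an unadjusted p under 0.05, 1 of 34 members (2.94%) passed in each comparison. These were Slc2a3 (MSG+TFA), Pfkfb4 (ASP+TFA) and Fbp2 (ASP+MSG+TFA). Over all genes the same limit was passed by 438 genes (2.15%) for MSG+TFA, 4602 (22.6%) for ASP+TFA and 5850 (28.7%) for ASP+MSG+TFA. Among genes above the dim limit it was passed by 15.7% and 20.7% in the aspartame comparisons, against 3.23% of the 31 members above it. The 3 comparisons share the TFA arrays, so they are not independent of each other.

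The signs of the differences were mixed. On MSG+TFA 10 of the 34 members lay above TFA and 24 below, where 46.6% of all genes lay above, with a median difference of -0.06 against -0.02 over all genes. On ASP+TFA 20 lay above and 14 below, where 46.0% of all genes lay above, with a median of 0.09 against -0.04. On ASP+MSG+TFA 19 lay above and 15 below, against 46.0% of all genes above, with a median of 0.04 against -0.05. Among genes above the dim limit 57.5%, 67.7% and 67.1% lay above TFA in that order, against 29%, 58.1% and 54.8% of the 31 members above it. Medians of these genes were 0.03, 0.13 and 0.14, against -0.06, 0.07 and 0.03 for those members. Leaving out the raised arrays left replicate 3 as the only array of TFA, and likewise of MSG+TFA, here and below. The members' medians were then -0.12, -0.10 and -0.05 in the same order. For both aspartame diets the negative sign rests on TFA replicate 3 alone, so it does not decide the direction.

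Groups of 3 arrays that did not overlap were seen for few members. On MSG+TFA this held for 1 higher member, Hk3, against 2.06% of all genes. On ASP+TFA it held for 1 higher and 1 lower, Pfkfb4 and Fbp2, against 7.17% and 11.7% of all genes (18.9% in either direction). On ASP+MSG+TFA it held for 2 higher, Pfkp and Eno3, and 2 lower, Pgk1 and Fbp2, against 13.7% and 17.9% (31.7% in either direction). The F test over the 4 diets was passed by 0 of 34 members at an unadjusted p under 0.05, against 18.1% of all genes, and the smallest adjusted p among members in limma was 0.361. The interaction of both additives was passed by 0 members, against 1.22% of all genes.

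**Figure D2:**
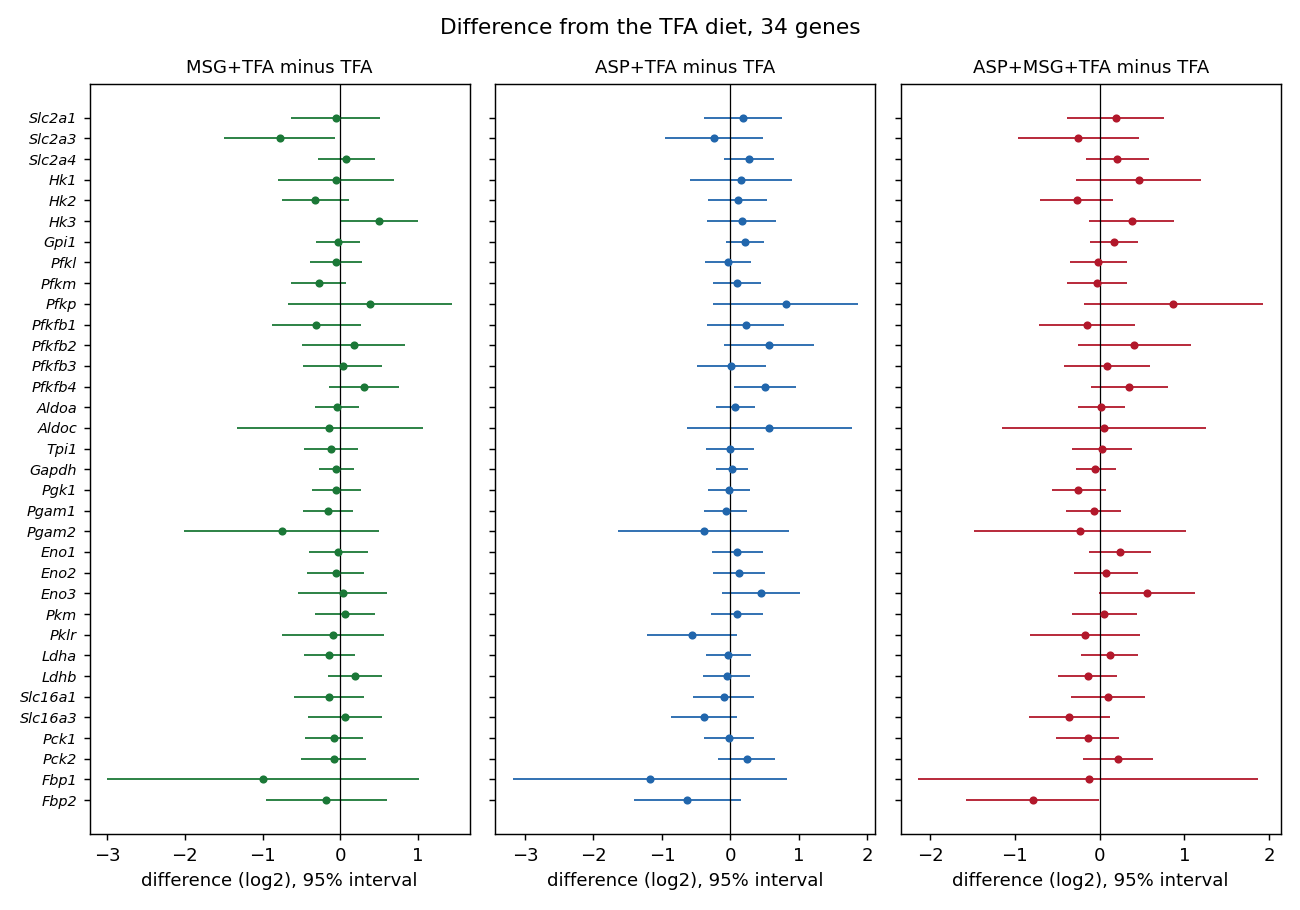
Difference of each additive diet from TFA for the 34 genes (horizontal axis, log2, with 1 panel per diet), where points are limma estimates and bars 95% intervals. Only the bars of Slc2a3 on MSG+TFA, Pfkfb4 on ASP+TFA and Fbp2 on ASP+MSG+TFA exclude 0 at an unadjusted p under 0.05, and none passed adjustment.

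Among the glucose carriers, Slc2a4, the insulin-responsive carrier of fat and muscle, read 9.36, 9.28 and 9.63 on the TFA arrays. On MSG+TFA it read 9.29, 9.44 and 9.76, on ASP+TFA 9.78, 9.44 and 9.87, and on ASP+MSG+TFA 9.72, 9.64 and 9.55. Of the 6 arrays with aspartame 4 lay above the highest TFA array, 9.63, and the others lay inside the TFA range. The lower TFA readings, 9.36 and 9.28, came from raised arrays. TFA replicate 3, not a raised array, gave the 9.63, close to the mean with aspartame alone, 9.69, and with both additives, 9.64. MSG+TFA replicate 3, not raised either, read 9.76. The higher means with aspartame thus rest largely on the raised TFA arrays. The difference was 0.27 ± 0.17 (SE) on ASP+TFA (limma adjusted p = 0.327) and 0.21 ± 0.17 on ASP+MSG+TFA (adjusted p = 0.405), with 11 of its 13 probe sets higher in both. On MSG+TFA it was 0.07 ± 0.17 (adjusted p = 1), and the intervals left room for no more than 0.64 in either direction on any diet.

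Slc2a1, the carrier for basal uptake, read 8.39, 7.97 and 8.85 on TFA and 8.43, 8.05 and 8.54 on MSG+TFA. It read 8.52, 9.03 and 8.23 on ASP+TFA and 8.77, 8.38 and 8.62 on ASP+MSG+TFA. All groups overlapped, and the largest difference was 0.19 ± 0.26 (SE) (limma adjusted p = 0.655 for ASP+TFA and 0.645 for ASP+MSG+TFA).

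Slc2a3, the high-affinity carrier (GLUT3) known from neurons and, in the mouse, from sperm, read 8.06, 9.09 and 8.47 on TFA. It read 8.32, 7.32 and 7.65 on MSG+TFA, 8.51, 8.55 and 7.83 on ASP+TFA, and 8.10, 8.18 and 8.58 on ASP+MSG+TFA. On MSG+TFA 2 of the 3 arrays lay below all TFA arrays and 1 lay between them. The difference there was -0.78 ± 0.32 (SE) with a 95% interval of -1.49 to -0.07, 1.71-fold lower, with 1 of 12 probe sets higher (limma adjusted p = 1). It came to -0.24 and -0.25 on the other diets, with adjusted p of 0.645 and 0.617. Its highest array, TFA replicate 2, was also the array with the highest spermatid markers, a point taken up below.

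Of the hexokinases, Hk2, the form that insulin induces in fat and muscle, read 8.63, 8.04 and 8.77 on TFA. The MSG+TFA arrays lay close together at 8.11, 8.17 and 8.20, inside the TFA range. ASP+TFA read 8.69, 8.69 and 8.40, and ASP+MSG+TFA 8.47, 8.11 and 8.05. Differences were -0.32 ± 0.20 (SE) for MSG+TFA, 0.11 ± 0.20 for ASP+TFA and -0.27 ± 0.20 for ASP+MSG+TFA, and limma's adjusted p was 1, 0.732 and 0.357.

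Hk3, a hexokinase of white blood cells, was dim on all arrays. It read 5.27, 5.56 and 5.00 on TFA and 5.62, 5.84 and 5.88 on MSG+TFA, so that these groups did not overlap. It read 5.12, 5.23 and 5.98 on ASP+TFA and 5.70, 5.48 and 5.79 on ASP+MSG+TFA. The difference on MSG+TFA was 0.50 ± 0.23 (SE) (limma adjusted p = 1), and 14 of its 19 probe sets lay higher, but the brightest probe set alone gave -0.18. Both sides were below the dim limit.

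Phosphofructokinase is built from subunits of 3 genes. Pfkm, the muscle subunit, read 7.63, 7.90 and 8.17 on TFA, 7.57, 7.66 and 7.61 on MSG+TFA, 8.21, 7.79 and 7.99 on ASP+TFA, and 7.80, 7.86 and 7.93 on ASP+MSG+TFA. Its largest difference was -0.28 ± 0.16 (SE) on MSG+TFA (limma adjusted p = 1), with overlapping arrays. Pfkl, the liver subunit, stayed between 9.12 and 9.62, with no difference beyond -0.05.

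Pfkp, the platelet subunit, varied over 2.20 log2 units. It read 6.75, 7.67 and 7.79 on TFA and 6.81, 7.92 and 8.63 on MSG+TFA. It read 8.10, 7.58 and 8.95 on ASP+TFA and 8.10, 8.05 and 8.67 on ASP+MSG+TFA, where all 3 arrays lay above TFA. The difference was 0.87 ± 0.48 (SE), 1.83-fold, on ASP+MSG+TFA with 21 of 25 probe sets higher (limma adjusted p = 0.238), and 0.81 ± 0.48 on ASP+TFA (adjusted p = 0.31). Macrophage markers on the same arrays averaged 8.91, 9.34 and 9.19 on TFA, 8.82, 9.82 and 9.90 on MSG+TFA, 9.40, 9.19 and 10.13 on ASP+TFA, and 9.84, 9.83 and 10.09 on ASP+MSG+TFA. In every diet the array highest in Pfkp was also highest in these 11 markers, apart from TFA, where replicates 2 and 3 changed places. Endothelial markers were highest on replicate 3 of each diet, at 10.19, 10.40, 10.32 and 10.51 in the same order, and so was Pfkp. Without the raised arrays the Pfkp difference was 0.48 on ASP+MSG+TFA and 0.41 on ASP+TFA. The part of either cell type in the Pfkp values was not tested.

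The Pfkfb genes make and remove fructose 2,6-bisphosphate, the strongest activator of phosphofructokinase. Pfkfb3, the form with the highest ratio of kinase to phosphatase activity, read 11.21, 11.59 and 11.42 on TFA and 11.01, 11.61 and 11.69 on MSG+TFA. It read 11.59, 10.96 and 11.71 on ASP+TFA and 11.53, 11.36 and 11.60 on ASP+MSG+TFA. All groups overlapped, and no difference went past 0.09 ± 0.23 (SE), with adjusted p of 1, 0.976 and 0.811 in limma.

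Pfkfb4, an isoform known from testis and from hypoxic cells, read 5.98, 6.38 and 6.64 on TFA and 6.58, 6.39 and 6.95 on MSG+TFA. It read 6.74, 7.08 and 6.72 on ASP+TFA, all above TFA, and 6.77, 6.80 and 6.49 on ASP+MSG+TFA. The difference on ASP+TFA was 0.51 ± 0.20 (SE) with a 95% interval of 0.06 to 0.96, 1.42-fold, with 16 of 20 probe sets higher (limma adjusted p = 0.197). These levels straddle the dim limit, and the brightest probe set alone gave -0.38. Without the raised arrays the difference was 0.20, and without TFA replicate 3 it was 0.66 with an adjusted p of 0.0403, when both remaining TFA arrays were raised ones.

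Pfkfb2, the heart form, read 7.10, 6.71 and 7.59 on TFA, 7.62, 6.96 and 7.33 on MSG+TFA, 7.59, 8.21 and 7.27 on ASP+TFA, and 7.79, 7.70 and 7.15 on ASP+MSG+TFA. Its difference on ASP+TFA was 0.56 ± 0.30 (SE) (limma adjusted p = 0.274), and the brightest probe set gave -0.44. Without the raised arrays it was 0.11, and with the receptor median as a term in the fit 0.20. The lowest Pfkfb2 array of each diet was the one lowest in epididymis markers, at 5.93, 5.85, 6.01 and 5.30, and their part was not tested.

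Pfkfb1, first known from liver, ranged from 8.98 to 10.18 with differences of -0.31, 0.23 and -0.15 in the order MSG+TFA, ASP+TFA and ASP+MSG+TFA. Same-numbered MSG+TFA and TFA arrays deviated together, and within these 3 pairs Pfkfb1 was lower with MSG by 0.33, 0.36 and 0.24. When both diets alone were fitted with the pair as a block, the difference was -0.31 ± 0.11 (SE) (limma adjusted p = 0.781). The dim Hk3 was higher in each pair, by 0.35, 0.27 and 0.87, at 0.50 ± 0.16 in that fit (limma adjusted p = 0.781). All arrays of the first and second pairs were raised ones. Over the pairs 7 of 34 members were lower each time and 3 higher, against 16.3% and 12.9% of all genes.

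Of the enzymes of the lower pathway Gapdh varied least. Gapdh, the glyceraldehyde 3-phosphate dehydrogenase often used as a reference gene, read 12.66, 12.65 and 12.74 on TFA and 12.57, 12.66 and 12.68 on MSG+TFA. It read 12.76, 12.61 and 12.74 on ASP+TFA and 12.61, 12.62 and 12.68 on ASP+MSG+TFA, a range of 0.19 over 12 arrays. Its SD within diets was 0.06, at percentile 0.3 of all genes. Differences lay between -0.05 and 0.02 with intervals from -0.28 to 0.26, although Gapdh rests on 1 probe set, because 8 others also name pseudogenes.

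Ldha, which turns pyruvate to lactate, read 11.62, 11.74 and 11.95 on TFA and 11.37, 11.71 and 11.82 on MSG+TFA. It read 11.86, 11.60 and 11.77 on ASP+TFA and 11.83, 11.85 and 11.98 on ASP+MSG+TFA. Each additive diet overlapped TFA, and the differences were -0.14, -0.03 and 0.12 with an SE of 0.15 (limma adjusted p = 1, 0.924 and 0.625).

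Pgk1, phosphoglycerate kinase, read 10.78, 11.02 and 11.10 on TFA, 10.66, 11.02 and 11.07 on MSG+TFA, and 10.97, 10.84 and 11.03 on ASP+TFA. On ASP+MSG+TFA it read 10.75, 10.69 and 10.72, narrowly below all TFA arrays. The difference there was -0.25 ± 0.14 (SE), 1.19-fold lower, with 1 of 19 probe sets higher (limma adjusted p = 0.256). This value was larger in size without the raised arrays, at -0.38, but that fit sets the diet against TFA replicate 3 alone.

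The 250 bases before the transcription start of these genes were searched for ACGTG, the core of the element bound by hypoxia-inducible factor, a known regulator of glycolytic genes. CACGTG, the E-box read by Myc and by carbohydrate-responsive factors, was searched as well and counts as 2 copies of ACGTG, 1 on each strand. RefSeq promoters on GRCm38.p6 were matched for 32 of the 34 genes, with Slc2a3 and Slc2a4 unmatched. ACGTG on either strand stood in 18 of the 50 member promoters (36.0%), from 14 genes, against 16.6% of all 32851 promoters. It stood there 2 or more times in 18.0% of member promoters and 6.8% of all. CACGTG stood in 6 of 50 (12.0%) against 6.0% of all. Printed here are the last 150 bases before the start for Pgk1 and Ldha, lower glycolytic genes with copies in that stretch. The same is given for Fbp2 and Pfkfb4, members with an unadjusted p under 0.05. Capitals mark ACGTG or its complement CACGT. Pgk1 lies at chrX:106186950-106187099 (plus strand), Ldha at chr7:46845654-46845803 (plus strand), Fbp2 at chr13:62858401-62858550 (minus strand) and Pfkfb4 at chr9:108991752-108991901 (plus strand).
Pgk1: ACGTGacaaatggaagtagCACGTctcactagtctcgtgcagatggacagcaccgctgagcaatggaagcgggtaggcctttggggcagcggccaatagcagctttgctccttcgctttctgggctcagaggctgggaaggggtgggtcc
Ldha: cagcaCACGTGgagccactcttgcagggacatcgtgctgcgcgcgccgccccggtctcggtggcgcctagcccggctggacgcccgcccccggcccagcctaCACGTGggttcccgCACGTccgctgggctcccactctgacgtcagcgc
Fbp2: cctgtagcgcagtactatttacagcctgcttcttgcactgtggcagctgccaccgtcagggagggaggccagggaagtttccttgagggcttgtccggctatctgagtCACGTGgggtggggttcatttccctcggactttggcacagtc
Pfkfb4: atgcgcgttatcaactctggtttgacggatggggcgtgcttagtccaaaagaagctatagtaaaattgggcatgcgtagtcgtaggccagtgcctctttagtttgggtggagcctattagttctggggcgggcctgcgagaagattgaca
The Ldha stretch holds 5 copies, 4 of them in 2 E-boxes, Pgk1 holds 2 on opposite strands, Fbp2 holds 1 E-box, and Pfkfb4 holds none in these letters. A match is a description of the sequence and shows no binding.

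Further members with narrow ranges were Aldoa, Gpi1, Tpi1, Pgam1, Eno1, Pkm and Pfkl, at of 0.37 to 0.63 over the 12 arrays. They encode aldolase, glucose 6-phosphate isomerase, triosephosphate isomerase, phosphoglycerate mutase, enolase, pyruvate kinase and the liver phosphofructokinase, and no difference of theirs from TFA went past 0.24 ± 0.17 (SE), that of Eno1 on ASP+MSG+TFA. The 11 members with a mean above 10, a level chosen after the values were seen, had a median SD within diets of 0.16, and so had all 1887 genes above that level.

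These bright genes shared their low arrays. MSG+TFA replicate 1 was the lowest array for 8 of the 11 (Gpi1, Aldoa, Tpi1, Gapdh, Pgk1, Pgam1, Eno1 and Ldha), against 29.5% of the 1887 genes. ASP+TFA replicate 2 was lowest for Pfkfb3 and Pck1, and Pkm was lowest on another array. Those 2 were the arrays with the lowest mature adipocyte markers, at 12.85 and 12.87, and with the highest epididymis markers, at 12.91 and 12.76. MSG+TFA replicate 1 was also a raised array, and the lowest in macrophage markers, at 8.82, and in endothelial markers, at 9.62. Of the 11 macrophage markers 8 had their minimum there. Of the 12 adipocyte markers 5 had their minimum on MSG+TFA replicate 1, while 4 had it for ASP+TFA replicate 2 and 3 for the first array of the combined diet. Of the 11 glycolysis enzymes from isomerase to enolase 10 lay below TFA on MSG+TFA, with a median of -0.06. Over all genes 10876 of 20358 lay below, with a median of -0.02. Whether the makeup of the pools accounts for the shared order was not tested.

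The muscle form of enolase, Eno3, stood apart from Eno1. It read 7.68, 7.05 and 7.78 on TFA, 7.59, 7.40 and 7.60 on MSG+TFA, 8.02, 8.39 and 7.44 on ASP+TFA, and 7.91, 8.33 and 7.93 on ASP+MSG+TFA, where no array overlapped TFA. The difference was 0.56 ± 0.26 (SE), 1.47-fold, on ASP+MSG+TFA (limma adjusted p = 0.179) and 0.45 ± 0.26 on ASP+TFA (adjusted p = 0.296). Only 9 of its 14 probe sets lay higher in both, and without the raised arrays the values were 0.28 and 0.17. The mean of the skeletal muscle markers was 5.78 to 6.48 on all arrays, under the dim limit, although Acta1, Ckm and Tnni2 were above it. In the 3 diets other than the combined one Eno3 was lowest on the array lowest in epididymis markers, and their part was not tested.

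Pyruvate kinase is made from Pkm in most tissues and from Pklr in liver and red cells. Pklr read 7.22, 6.97 and 6.76 on TFA and 6.91, 6.97 and 6.79 on MSG+TFA. It read 6.96, 6.58 and 5.73 on ASP+TFA and 7.04, 6.33 and 7.07 on ASP+MSG+TFA. The difference on ASP+TFA was -0.56 ± 0.30 (SE) (limma adjusted p = 0.268), and replicate 3 of that diet was its lowest array. Pkm stayed between 9.76 and 10.31.

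Lactate leaves cells through Slc16a3 (MCT4), the exporter of glycolytic cells, and crosses in both directions through Slc16a1 (MCT1). Slc16a3 read 6.98, 7.05 and 6.34 on TFA, 7.09, 6.86 and 6.62 on MSG+TFA, 6.16, 6.73 and 6.32 on ASP+TFA, and 6.47, 6.44 and 6.39 on ASP+MSG+TFA. Its 4 highest arrays were the 4 raised ones, as for 22.0% of all genes, and its mean lay at the dim limit. The difference on ASP+TFA was -0.39 ± 0.21 (SE) (limma adjusted p = 0.285). Without TFA replicate 3 it was -0.61 (adjusted p = 0.037). Without the raised arrays, and so against TFA replicate 3 alone, it was 0.06. The sign depended on which TFA arrays were kept. Slc16a1 ranged from 9.47 to 10.26 and Ldhb, the heart-type dehydrogenase, from 8.72 to 9.48, with differences of at most 0.19 in size. Opposite to Slc16a3, Gpi1 and Pck2 had their 4 lowest values on the raised arrays, as had 11.1% of all genes.

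Of the gluconeogenic genes, Pck1 read 12.64, 12.54 and 12.59 on TFA and 12.28, 12.59 and 12.66 on MSG+TFA. It read 12.66, 12.22 and 12.83 on ASP+TFA and 12.39, 12.55 and 12.40 on ASP+MSG+TFA. Groups overlapped, the differences were -0.08, -0.02 and -0.14 with an SE of 0.17, and limma's adjusted p was 1, 0.947 and 0.58. Pck2, its mitochondrial counterpart, ranged from 6.70 to 7.55 and differed by no more than 0.24 ± 0.19.

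Fbp2, the muscle fructose bisphosphatase that undoes the phosphofructokinase step, read 7.73, 7.23 and 7.23 on TFA and 7.28, 7.60 and 6.75 on MSG+TFA. All arrays of both aspartame diets lay below TFA, at 6.84, 6.26 and 7.19 on ASP+TFA and at 5.87, 6.76 and 7.18 on ASP+MSG+TFA, the highest of each only narrowly. The difference was -0.79 ± 0.35 (SE), 1.73-fold lower, on ASP+MSG+TFA (95% interval -1.57 to -0.01, limma adjusted p = 0.171). On ASP+TFA it was -0.63 ± 0.35 (adjusted p = 0.289), and 0 of 7 probe sets lay higher in either comparison. Without the raised arrays the values were -0.62 and -0.47, and with the receptor median as a term in the fit they were -0.29 and -0.17. Its mean on ASP+MSG+TFA, 6.60, lay at the dim limit. The lowest Fbp2 values, 5.87 and 6.26, came on the arrays highest in seminal vesicle markers, at 13.50 and 13.70. TFA replicate 3, next in these markers at 12.91, had an Fbp2 of 7.23. The part of that tissue in the Fbp2 values was not tested.

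Fbp1, the liver and kidney form, was the most variable member, and like Hk1, Pgam2 and Aldoc below it was singled out after its values were seen. It read 7.44, 8.94 and 7.81 on TFA and 7.55, 6.44 and 7.23 on MSG+TFA. It read 7.64, 7.91 and 5.10 on ASP+TFA and 9.36, 5.92 and 8.52 on ASP+MSG+TFA. The SD within diets was 1.28, at percentile 98.6 of all genes, and the differences from TFA, -0.99, -1.18 and -0.13, had an SE of 0.91. The highest array, ASP+MSG+TFA replicate 1, had the highest liver markers, 10.54, and there G6pc, the liver's glucose-releasing phosphatase, read 8.72 against 4.79 to 6.60 on the other arrays. The liver carrier Slc2a2 read 7.26 there and 5.34 to 6.52 elsewhere. MSG+TFA replicate 3, next in liver markers at 9.56, had the second value of G6pc but an Fbp1 of only 7.23. The next values of Fbp1, 8.94, 8.52 and 7.91, came on the 3 arrays highest in spermatid markers, described next, and their part was not tested. On ASP+MSG+TFA replicate 1 Fbp2 had its lowest value.

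Slc2a3, Hk1 and Pgam2 had their 3 highest values on the same arrays, replicate 2 of TFA, replicate 2 of ASP+TFA and replicate 3 of the combined diet. On these, in that order, spermatid markers averaged 10.2, 8.96 and 9.49, against at most 8.13 elsewhere. The pattern was shared by 3 of 34 members and by 1.46% of all genes. Pgam2, the mutase of muscle and testis, read 7.36, 6.50 and 6.95 there and 5.12 to 5.72 on the other 9 arrays. Hk1, the hexokinase of most tissues with a further transcript in sperm, read 8.03, 8.25 and 8.30 there and 6.75 to 7.79 elsewhere. For Slc2a3 the gap was narrow, at 9.09, 8.55 and 8.58 against at most 8.51. On TFA replicate 2, the top array of Slc2a3 and Pgam2, pancreas markers averaged 10.01, and at most 6.15 on any other array.

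Of the 9 measured genes on a list of testis isoforms 5 had their 3 highest values on the same arrays, Slc2a3 among them, while Aldoart2, Pfkfb4, Eno4 and Pdha2 did not. Ldhc, the sperm lactate dehydrogenase, read 9.89, 8.17 and 9.00 there and 4.93 to 5.72 elsewhere. Gapdhs read 9.19, 7.69 and 8.45 there and at most 7.37 elsewhere, and Pgk2 read 9.25, 7.79 and 8.19 there and at most 7.65 elsewhere. The fructose carrier Slc2a5, also known from sperm, read 7.03, 6.49 and 7.23 there and at most 6.03 elsewhere. MSG+TFA had no such array, and in this group Slc2a3, Pgam2 and the germ cell kinase Gk2 had their lowest means. For Pgk2 the mean was lower on ASP+TFA, at 7.04 against 7.30, and spermatid markers on the other ASP+TFA arrays, 5.97 and 5.53, lay under the 6.67 to 7.89 of MSG+TFA. For Gk2 the difference of MSG+TFA from TFA was -1.81 ± 0.73 (SE) (limma adjusted p = 1). How much of the Slc2a3 difference on MSG+TFA came with these cells was not tested.

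**Figure D3:**
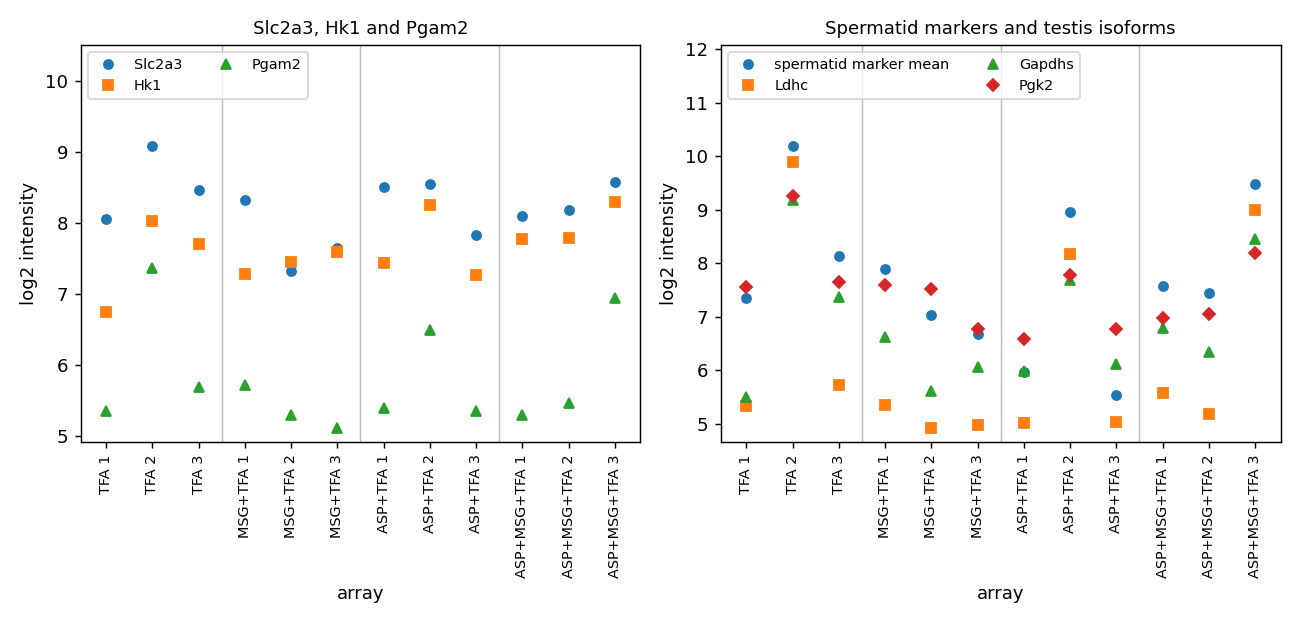
Level (vertical axis, log2 intensity) on each of the 12 arrays (horizontal axis) of Slc2a3, Hk1 and Pgam2 in the left panel, and of the mean of 8 spermatid markers and of Ldhc, Gapdhs and Pgk2 in the right panel. Grey lines separate the diets. Replicate 2 of TFA, replicate 2 of ASP+TFA and replicate 3 of ASP+MSG+TFA hold the 3 highest values of each series.

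Aldoc, the brain form of aldolase, was highest on the arrays with the highest mean of epididymis markers. It read 7.20 on TFA replicate 1, 7.75 on MSG+TFA replicate 1, 7.94 and 8.41 on ASP+TFA replicates 1 and 2, and 7.16 and 7.56 on ASP+MSG+TFA replicates 1 and 2. These 6 arrays had epididymis markers of 11.29 to 12.91, and on the other 6, at 5.30 to 9.11, Aldoc read 6.25 to 6.88. This split was found for 1 of 34 members and 1.16% of all genes. Both aspartame diets held 2 such arrays and TFA held 1. The difference from TFA was 0.57 ± 0.54 (SE) on ASP+TFA (limma adjusted p = 0.517) and 0.05 ± 0.54 on ASP+MSG+TFA. Not all epididymis markers followed the split of Aldoc. On replicate 3 of TFA and of MSG+TFA, where Aldoc was low, Crisp1, Lcn5, Adam7 and Spint4 read 10.94 to 13.85. Crisp4 read 10.04 and 7.97 on these arrays, and Lcn8, Lcn9, Rnase10, Defb20 and Defb48 read 5.14 to 6.95. The part of the epididymis in the Aldoc values was not tested.

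**Figure D4:**
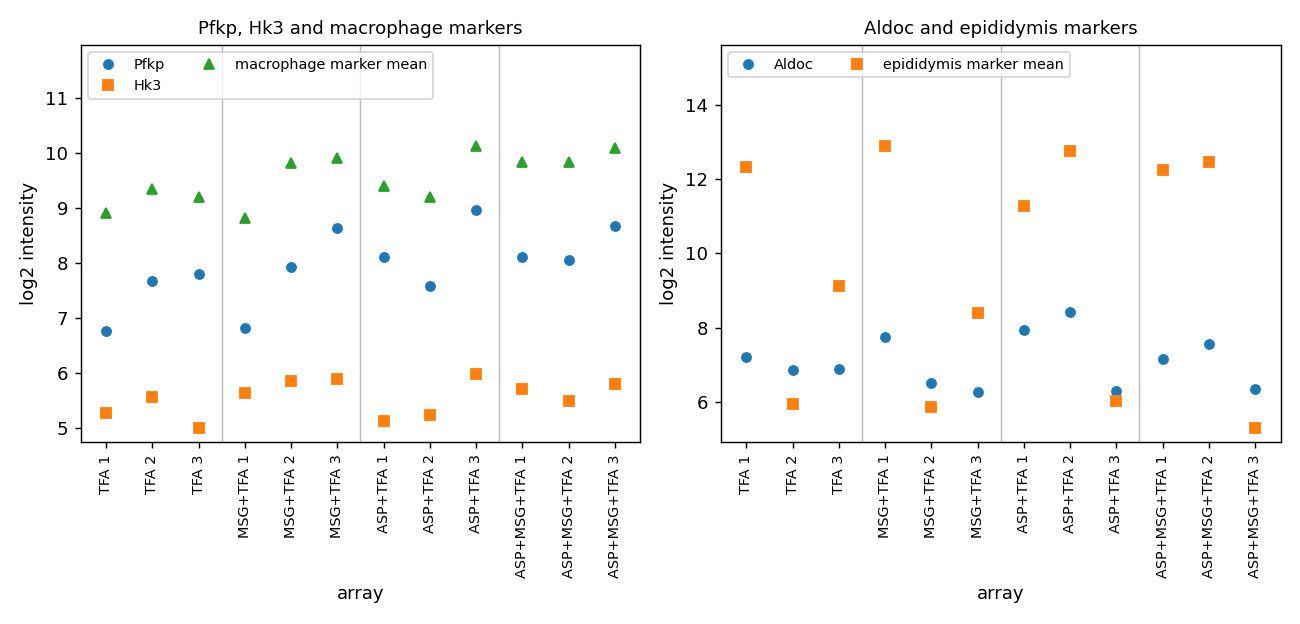
Level (vertical axis, log2 intensity) on each of the 12 arrays (horizontal axis) of Pfkp and Hk3 with the mean of 11 macrophage markers in the left panel, and of Aldoc with the mean of 10 epididymis markers in the right panel. Grey lines separate the diets. Aldoc lies at 7.16 or above on the 6 arrays where the epididymis mean is 11.29 or more and at 6.88 or below on the others.

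ASP+MSG+TFA was also set against each single additive. Against MSG+TFA 26 of 34 members lay higher, with a median of 0.14, where 48.6% of all genes and 68.1% of those above the dim limit lay higher. An unadjusted p under 0.05 was reached by 0 members, against 15.6% of all genes, and the arrays did not overlap for 4 higher members (Hk1, Pfkm, Eno3 and Ldha) and 2 lower (Ldhb and Slc16a3), against 7.66% and 16.1% of all genes (23.8% in either direction). Against ASP+TFA 15 lay higher and 19 lower with a median of -0.01, where 46.6% of all genes lay higher. That p was reached by 0 members, against 1.58% of all genes, and 1 member, Pgk1, lay lower with no overlap, against 5.46%. The Pgk1 difference was -0.23 ± 0.14 (SE), with 0 of 19 probe sets higher (limma adjusted p = 1).

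Genes that surround the pathway were taken from lists drawn up for it. In the list of 34 genes for carrier transport and transcription, 5 lay higher at an unadjusted p under 0.05 on ASP+TFA (Mlxip, Myc, Exoc7, Tbc1d4 and Stx4a) and 0 lower, and on ASP+MSG+TFA 4 lay higher (Mlxip, Exoc7, Myc and Rab8a) and 0 lower. Those shares, 14.7% and 11.8%, came from higher genes only, while the 22.6% and 28.7% of all genes count both directions. Of all 20358 genes, 1412 lay higher and 3190 lower at this p with aspartame alone. With both additives 1863 lay higher and 3987 lower. Counting higher genes only, the list's shares lay above those of all genes. Among the 11507 genes above the dim limit, 1241 and 1634 lay higher in the same order. Beside these, the list's share was larger on ASP+TFA but smaller on ASP+MSG+TFA. In the list only Trib3 had a mean under that limit. Mlxip, a transcription factor that senses glucose 6-phosphate, read 7.77, 7.64 and 8.11 on TFA and 7.81, 7.88 and 8.35 on MSG+TFA. It read 8.47, 8.47 and 8.56 on ASP+TFA and 8.54, 8.46 and 8.54 on ASP+MSG+TFA, all above every array of the other diets. Its differences were 0.66 ± 0.17 (SE), 1.58-fold, with 19 of 19 probe sets higher (limma adjusted p = 0.186) and 0.67 ± 0.17 (adjusted p = 0.123).

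Myc, which drives glycolytic genes in growing cells, read 7.62, 7.27 and 7.62 on TFA, 7.02, 7.53 and 7.88 on MSG+TFA, 8.25, 8.22 and 8.13 on ASP+TFA, and 8.15, 8.07 and 8.03 on ASP+MSG+TFA. The aspartame arrays again lay above all others, with differences of 0.70 ± 0.20 (SE) (limma adjusted p = 0.186) and 0.58 ± 0.20 (adjusted p = 0.125). Exoc7, an exocyst subunit in the delivery of GLUT4, and Tbc1d4, the Akt substrate that holds GLUT4 inside until insulin acts, differed by 0.75 ± 0.23 and 0.62 ± 0.20 on ASP+TFA. The 4 raised arrays held the 4 lowest values of Mlxip, Exoc7, Tbc1d4 and Stx4a, as for 11.1% of all genes. The share of all genes with every aspartame array above the rest is not given here.

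The glycogen list had 1 of 18 genes at this p, Pygm, the muscle glycogen phosphorylase, at 0.59 ± 0.17 on ASP+MSG+TFA (limma adjusted p = 0.123), but below the dim limit. Of 10 pentose phosphate genes Tktl2 alone passed, on ASP+TFA, at -0.35 ± 0.16 (adjusted p = 0.219), also with a mean below that limit. Among 24 other hexose carriers and entry enzymes Galk1, galactokinase, differed by 0.64 ± 0.18 on ASP+TFA (adjusted p = 0.186) and 0.55 ± 0.18 on ASP+MSG+TFA (adjusted p = 0.124), and the dim Slc5a2 by -0.42 ± 0.16 on ASP+MSG+TFA (adjusted p = 0.139). Of 22 genes for pyruvate, glycerol and glucose release 2 lay lower on ASP+MSG+TFA, Pdk1 at -0.56 ± 0.17 and G6pc2 at -0.57 ± 0.18, both with an adjusted p of 0.123, and G6pc2 was dim on all arrays. Pdk1, which holds pyruvate back from oxidation, read 8.56, 8.45 and 8.12 there and 8.91, 8.98 and 8.92 on TFA, and its ASP+TFA arrays read 8.98, 9.16 and 8.51. In each of these lists 0 genes passed on MSG+TFA, against 2.15% of all genes. On ASP+TFA the lists, in the order named, had 0%, 10%, 4.17% and 0% of their genes at this p, against 22.6% of all genes. On ASP+MSG+TFA they had 5.56%, 0%, 8.33% and 9.09%, against 28.7% of all genes.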

How the data were processed

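Gene expression was measured in 12 samples on Affymetrix Mouse Gene 1.0 ST arrays. The deposited values are linear intensity per probe set, which the authors background-corrected with GCRMA and quantile-normalized in Partek, per the labels and methods, and the table holds 241576 probe sets. Scanner files and scan dates were not used here. Diets came from the sample titles, which call the arrays biological replicates. RNA of several mice was pooled per array, so p-values measure the spread between 3 pools per diet, which limits all precision.

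Intensities were turned to log2 values. The platform annotation names exactly 1 gene for 212138 probe sets, several for 4672 and none for 24766, and only the first were used, giving 20358 genes. Symbols were updated through a RefSeq table of GRCm38.p6. A gene's value was the median over its probe sets (median 8 per gene), which cannot separate transcripts. Aldoa and Pkm each have 1 more probe set shared with another gene, left out.

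Limma 3.58.1 in R 4.3.3 fitted 1 mean per diet to all 12 arrays, with 8 residual and 2.73 prior degrees of freedom, followed by two-sided moderated tests. P-values were adjusted by Benjamini-Hochberg over all 20358 genes. The script was tested on simulated data. The members and lists were chosen with earlier results of these data known. All 34 members are accounted for. Values on every array are given for 7 genes, 1 per step (Slc2a1, Slc2a4, Hk2, Pfkfb3, Gapdh, Ldha and Pck1), and for the 5 members with the smallest unadjusted p in each contrast with TFA and in the F test. Up to 3 genes per further list and contrast were named by smallest p, and others are named only where a count is 5 or fewer or where said so.

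Same-numbered TFA and MSG+TFA arrays deviated together from their diet means over all genes (correlations 0.593, 0.632 and 0.661), so their numbers from the titles were treated as pairs in an alternative fit, while over all diets such correlations ran from -0.549 to 0.661. Further alternatives were other probe set summaries, scalings and filters, the receptor median as a term, moderated tests with trend, the methods' analysis of variance, and leaving out raised or single arrays. Promoter sequences came from RefSeq.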

Additional observations from a re-analysis of the deposited data

How the results depend on the processing

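No member was called in any comparison under any alternative other than leaving out single arrays, except 1 (on ASP+TFA) by the methods' analysis of variance before adjustment. That analysis called 2597 genes on ASP+TFA, 118 on MSG+TFA and 3550 on ASP+MSG+TFA, 1605 for the latter against MSG+TFA, 108 against ASP+TFA, 332 for the interaction and 2843 for any difference among diets, and after Benjamini-Hochberg adjustment it called 0 genes in each of these. The brightest probe set gave 1 called gene on ASP+TFA, 2 on ASP+MSG+TFA and 1 in the F test, and the replicate block gave 2 on ASP+MSG+TFA. Leaving out 1 array at a time gave 0 to 5413 called genes and 0 to 2 called members on ASP+TFA, 0 to 6042 and 0 to 1 on ASP+MSG+TFA, and 0 to 3786 genes in the F test. All the high values came without TFA replicate 3, which leaves only raised arrays in TFA, and the called members were Pfkfb4 (0.66) and Slc16a3 (-0.61) on ASP+TFA and Slc16a3 (-0.58) on ASP+MSG+TFA.

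The members' median difference moved to -0.13 on ASP+TFA with the brightest probe set and to -0.18 on ASP+MSG+TFA with arrays centred on genes above the dim limit, a scaling that moved the median of all genes to -0.24 and -0.27 on these diets. With the brightest probe set the sign turned for Pfkfb4 (-0.38) and Pfkfb2 (-0.44) on ASP+TFA, and for Hk3 (-0.65), Pfkfb4 (-0.39) and Pfkfb2 (-0.31) on ASP+MSG+TFA, with values beyond 1 SE in both fits. Further turns included Hk3 on ASP+TFA (-0.53) and, for MSG+TFA, Hk3 (-0.18), Pfkfb4 (-0.12) and Pfkfb2 (-0.21). The cause was not tested. Of 645 further values of named members 71 changed sign, and of 648 with 1 array left out 41 did. With the replicate number as a block and only TFA and MSG+TFA in the fit, an alternative chosen after seeing the data, 0 genes were called, 1185 had an unadjusted p under 0.05 against 209 in that fit without the block and 438 over all diets. Apart from the 2 genes above the block changed no call. Without any raised array 721, 890 and 1484 genes had such a p on MSG+TFA, ASP+TFA and ASP+MSG+TFA, but TFA and MSG+TFA then rest on 1 array each, assumed to vary like the others.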
